A study of Drosophila melanogaster with 40 samples.

Results

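Ecdysone is the steroid hormone that times molting and metamorphosis in insects. Its active form binds the nuclear receptor EcR, which acts on DNA as a pair with a second nuclear receptor, Usp, and hormone-bound EcR/Usp first switches on a small set of early genes that encode further transcription factors. These in turn act on late genes and on each other, so that the pathway is often drawn as a cascade of nuclear receptors. S2 cells are a long-established embryonic Drosophila line with features of hemocytes, the insect blood cells, and are known to respond to added ecdysone. The transcripts followed here were those of EcR, usp, Eip75B, Eip78C, Eip74EF, br, ftz-f1, Hr39, Hr38 and Hr96, 10 genes chosen by name for their place in or beside this cascade, out of 15863 loci quantified at 25°C and 15864 at 28°C. They were found through the RefSeq accessions attached to each locus. All 10 had a locus in both time courses, and 9 had one to themselves. The exception was usp, whose 2 annotated transcripts shared a locus of 11 transcripts with Actn, the gene of the muscle and non-muscle actin crosslinker alpha-actinin, so that their reads could not be told apart.

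The S2 cells were sampled for RNA sequencing at 3-h steps starting at CT24 and ending at CT81, where CT is circadian time in h, which gave 20 libraries at each of 2 temperatures. The cells had been synchronised by temperature cycles and were then held at a constant 25°C, after a medium change, or at a constant 28°C. The labels name no transgene and no hormone treatment, so all values describe cells without a stated ecdysone dose. At 25°C polyA RNA was sequenced and at 28°C rRNA-depleted total RNA, so that temperature, synchronisation, RNA fraction and any difference between cultures cannot be told apart. No time point had a replicate, and the error in every test below is the scatter of the 20 values around a fitted line or curve. The values are FPKM, reads scaled to transcript length and library size, which allows levels of different genes to be compared within a time course. Each time course was normalised by itself, and no test was run between them.

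The libraries at 25°C were much deeper than those at 28°C. At a typical locus with few reads, 1 read was worth 0.0345 to 0.0930 FPKM at 25°C and 1.40 to 3.50 FPKM at 28°C, and relative depth within a time course ranged from 0.573 to 1.54 and from 0.550 to 1.37. Of 9 hemocyte markers, srp, Pxn, crq and Col4a1 had mean levels from 33.8 to 347 FPKM at 25°C, while Hml, NimC1 and Sr-CI, markers of mature plasmatocytes, lay at 0.0133 to 0.0536 FPKM, and He and eater at 1.12 and 0.667 FPKM. Hml reached at most 0.0667 FPKM at 25°C and ranged from 1.69 to 20.3 FPKM at 28°C. Hml, He, Sr-CI, eater and NimC1 averaged 10.0, 11.3, 2.99, 2.50 and 0.788 FPKM there. He, Sr-CI, eater and NimC1 were listed at 0 in 7, 11, 5 and 13 libraries. Pxn, srp and crq averaged 33.8, 87.3 and 118 FPKM at 25°C, and 21.1, 37.4 and 76.9 FPKM at 28°C. The summed level of the list was 523 to 657 FPKM at 25°C and 474 to 719 FPKM at 28°C. Col4a1 alone averaged 347 and 444 FPKM, so these sums say little on the other markers. Whether marker levels differ between the time courses was not tested. Among 11 markers of fat body, neurons, muscle, germ line and prothoracic gland, elav was the only one with a mean of at least 0.9 FPKM at 25°C (6.65 FPKM), and the list summed to 6.44 to 9.41 FPKM there and to 0 to 16.6 FPKM at 28°C. At 25°C elav rose by 0.37 ± 0.08 on the log2 scale (limma, adjusted P-value = 0.00048). Of the 5 hemocyte markers that passed the minimum for the test, 2 rose and 2 fell, against 32.4% and 35.6% of all loci. The part of these marker shifts in the results below was not tested.

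EcR and the joint usp/Actn locus were expressed throughout the 25°C time course, and the level of usp itself is not known. EcR, on chromosome arm 2R from 1975378 to 2056592 (dm3 build), ranged from 10.4 FPKM at CT60 over a median of 12.5 to 14.3 FPKM at CT72, with a mean of 12.6 ± 1.15 FPKM (SD, n = 20). Its 5 last libraries, at 13.7 to 14.3 FPKM, lay just above its 5 first, at 11.0 to 13.6 FPKM. In bulk RNA, a change in the share of cells that carry a transcript and a change in the amount per cell cannot be told apart. The fitted change over the 57 h was 0.18 ± 0.08 (SE) on the log2(FPKM + 1) scale, which did not pass the threshold (limma, adjusted P-value = 0.064). This call rested on single libraries, since the adjusted P-value was 0.027 without CT33, 0.035 without CT36 and 0.017 without CT60. A smooth curve in time was not called either (limma F test of a natural spline with 3 degrees of freedom, adjusted P-value = 0.061, but 0.044 without CT33 and 0.034 without CT51). The usp/Actn locus, on the X chromosome from 1904893 to 1955948, was the highest of the 10, at 49.3 to 56.5 FPKM with a median of 52.8. Its highest library was only 1.15 times its lowest, and its fitted change was -0.02 ± 0.05 (limma, adjusted P-value = 0.68; 95% interval -0.12 to 0.08).

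**Figure D1:**
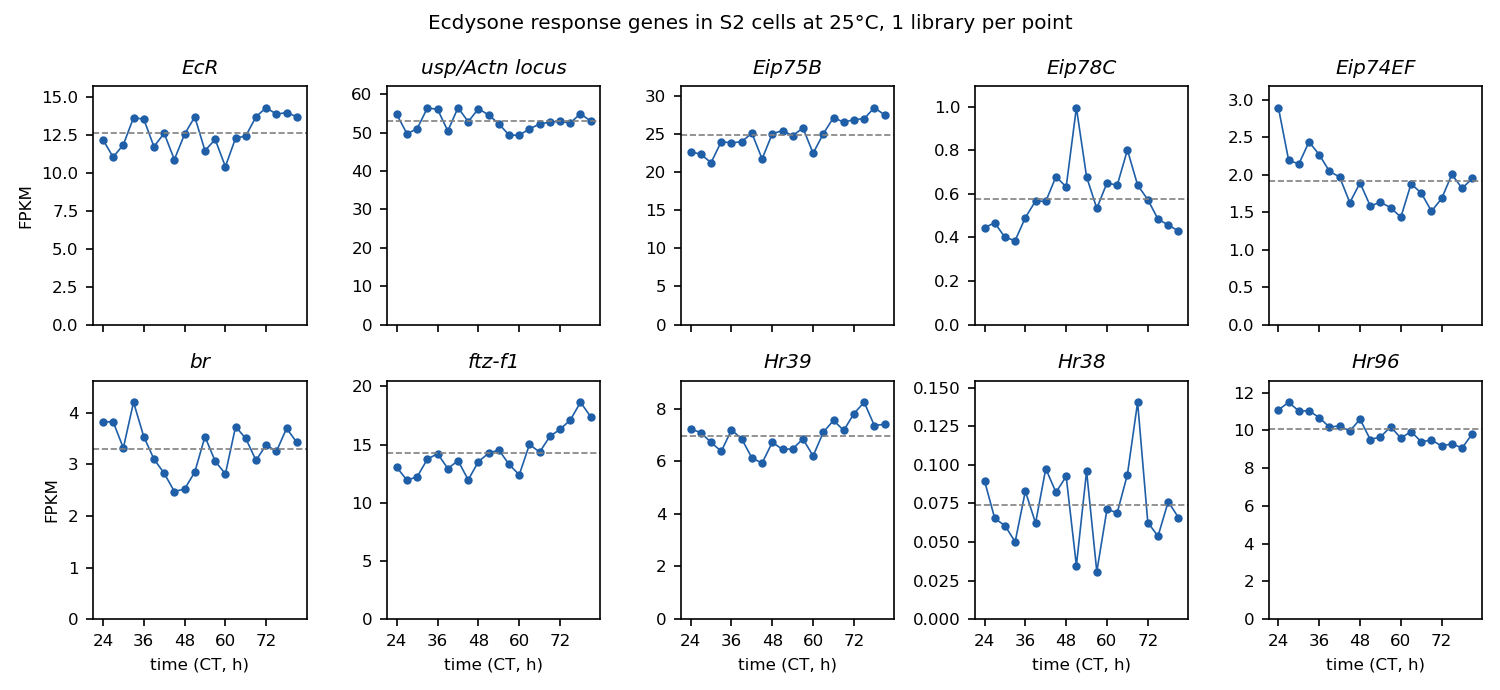
FPKM (vertical axes, from 0) against time in CT hours for the 10 genes at 25°C, with 1 library per point and the mean of the 20 libraries as a dashed line. Eip75B and ftz-f1 climbed to their highest values at CT78, Hr96 declined from 11.5 FPKM at CT27, and Eip78C had its highest value, 0.996 FPKM, at CT51.

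Of the early genes, Eip75B rose and Eip74EF fell at 25°C. Eip75B (arm 3L, 17944053 to 18057796) encodes E75, a nuclear receptor with a haem-binding ligand domain that represses other receptors of the cascade. It was the highest of the loci held by a single gene, at 21.2 FPKM at CT30, a median of 25.0 and 28.4 FPKM at CT78. Every one of its 5 last libraries (26.5 to 28.4 FPKM) exceeded all 5 first (21.2 to 24.0 FPKM). The fitted rise was 0.30 ± 0.05 on the log2 scale (limma, adjusted P-value = 2.1e-05). Eip74EF (arm 3L, 17551772 to 17612425), which encodes an ETS-domain transcription factor, was an order of magnitude lower. It went from 2.89 FPKM at CT24 to 1.43 FPKM at CT60, around a median of 1.88 FPKM. The 5 last libraries, at 1.51 to 2.00 FPKM, all lay below the 5 first, at 2.14 to 2.89 FPKM, and the fitted change was -0.33 ± 0.10 (limma, adjusted P-value = 0.0085). The slope of the 16 first time points corresponded to -0.62 over 57 h, and that of the 16 last to -0.11 (limma, adjusted P-value = 0.52). The difference of these slopes was not tested.

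br and Eip78C changed without a net slope at 25°C. br (X chromosome, 1417587 to 1563330) encodes the Broad zinc-finger proteins, which are needed for the entry into metamorphosis. It stood at 4.21 FPKM at CT33, dropped to 2.47 FPKM at CT45 and 2.52 FPKM at CT48, and was back at 3.73 FPKM at CT63. Its fitted linear change was -0.05 ± 0.12 (limma, adjusted P-value = 0.72), whereas a smooth curve in time was called (limma, spline, adjusted P-value = 0.018). This call was lost without CT45 and CT60 (0.059), over the 16 first (0.085) or last time points (0.11) and with serial correlation removed (0.26). Around the straight line, the residuals of br had the highest serial correlation of the 8 tested genes, 0.47. These residuals still hold any curve in time, and the serial correlation around the spline is not given. Eip78C (arm 3L, 21219709 to 21259603), a receptor related to E75, had a mean of 0.576 FPKM and thus missed the minimum of 0.9 FPKM set for the tests. It ranged from 0.386 FPKM at CT33 over a median of 0.567 to 0.996 FPKM at CT51, with 0.802 FPKM at CT66 and 0.430 FPKM at CT81. With no minimum on the level, its spline was called as well (limma, adjusted P-value = 0.0039), while its linear term was not (adjusted P-value = 0.50). At this depth its values stood well above the worth of 1 read.

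ftz-f1 had the largest fitted change of the 8 tested genes on the log2(FPKM + 1) scale. With a pseudocount of 0.1, which weighs low genes more, the changes of ftz-f1 and Eip74EF were of like size, at 0.47 and -0.47. ftz-f1 encodes a nuclear receptor that follows the early genes in the prepupa and gives tissues the competence to respond to the next ecdysone pulse. Its locus (arm 3L, 18743707 to 18794409) gave 11.9 FPKM at CT27, a median of 14.0 and 18.6 FPKM at CT78. The 5 last libraries (15.7 to 18.6 FPKM) were all above the 5 first (11.9 to 14.2 FPKM), with means of 17.0 ± 1.12 and 13.0 ± 0.969 FPKM (SD). The fitted rise was 0.45 ± 0.07 (limma, adjusted P-value = 2.2e-05), with slopes of 0.26 per 57 h over the 16 first time points and 0.54 over the 16 last, whose difference was not tested. Hr39 (arm 2L, 21237250 to 21259675), a close relative of ftz-f1 best known from the glands of the female reproductive tract, dipped to 5.93 FPKM at CT45 and reached 8.24 FPKM at CT75, with a median of 6.97 FPKM. Its windows overlapped, at 6.38 to 7.22 FPKM for the 5 first libraries and 7.17 to 8.24 FPKM for the 5 last. The fitted rise of 0.16 ± 0.07 passed narrowly (limma, adjusted P-value = 0.049) and was lost on leaving out any of 15 of the 20 libraries (adjusted P-value up to 0.13, without CT75). It held only without CT24, CT27, CT36, CT54 or CT60. The spline of Hr39 was called in each of these fits (limma, adjusted P-value 0.0010 to 0.0090).

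The remaining receptors differed widely in level. Hr96 (arm 3R, 20850957 to 20855073), a relative of the vertebrate receptors that sense xenobiotics and lipids, fell steadily. It went from 11.5 FPKM at CT27 to 9.07 FPKM at CT78 around a median of 9.95 FPKM, with its 5 last libraries (9.07 to 9.81 FPKM) below all 5 first (10.7 to 11.5 FPKM). The fitted change was -0.26 ± 0.04, the most precise of the 8 (limma, adjusted P-value = 3.2e-06). Hr38 (arm 2L, 20682368 to 20714588), the NR4A-type receptor that can also pair with Usp, was barely detected. It ranged from 0.0308 to 0.141 FPKM with a median of 0.0701 FPKM. At a typical low locus 1 read was worth 0.0345 to 0.0930 FPKM, which is of like size. The lowest value of Hr38, at CT57, lay below the worth of 1 read at such a locus in that library (0.0551 FPKM). The worth of 1 read at Hr38 itself is not known. With no minimum on the level, neither its linear term (0.01 ± 0.02, limma, adjusted P-value = 0.89) nor its spline (adjusted P-value = 0.98) was called.

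In order of mean level at 25°C, the genes ran usp/Actn, Eip75B, ftz-f1, EcR, Hr96, Hr39, br, Eip74EF, Eip78C and Hr38, from 52.9 to 0.0739 FPKM. The ranges of neighbours overlapped for ftz-f1 and EcR, for EcR and Hr96, and for br and Eip74EF, and did not touch for any other neighbours.

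Across the 8 tested genes, 3 rose (Eip75B, ftz-f1 and Hr39) and 2 fell (Eip74EF and Hr96) by the linear test at 25°C. The same test called 32.4% of all 7531 loci as rising, 35.6% as falling and 68.0% in either direction, so the share among the ecdysone response genes was near the background. The spline test called 6 of the 8, all but EcR and usp/Actn, against 76.1% of all loci. Likewise, the 5 last libraries lay wholly above the 5 first for 3 of the 8 genes (28.1% of all loci) and wholly below for 2 (32.2%). The median size of the change, whatever its sign, was 0.22 among the 8 genes and 0.31 among all loci. When a serial correlation of 0.4 between neighbouring libraries was removed, an alternative chosen after seeing the data, 3 linear calls remained (Eip75B, ftz-f1 and Hr96, adjusted P-values 0.0061, 0.0018 and 0.0020), and Eip74EF missed the threshold (0.054). Under this setting 55.0% of all loci were called. Around the straight line, the residuals of Eip74EF had a serial correlation of 0.37, and those of all loci had a median of 0.22.

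**Figure D2:**
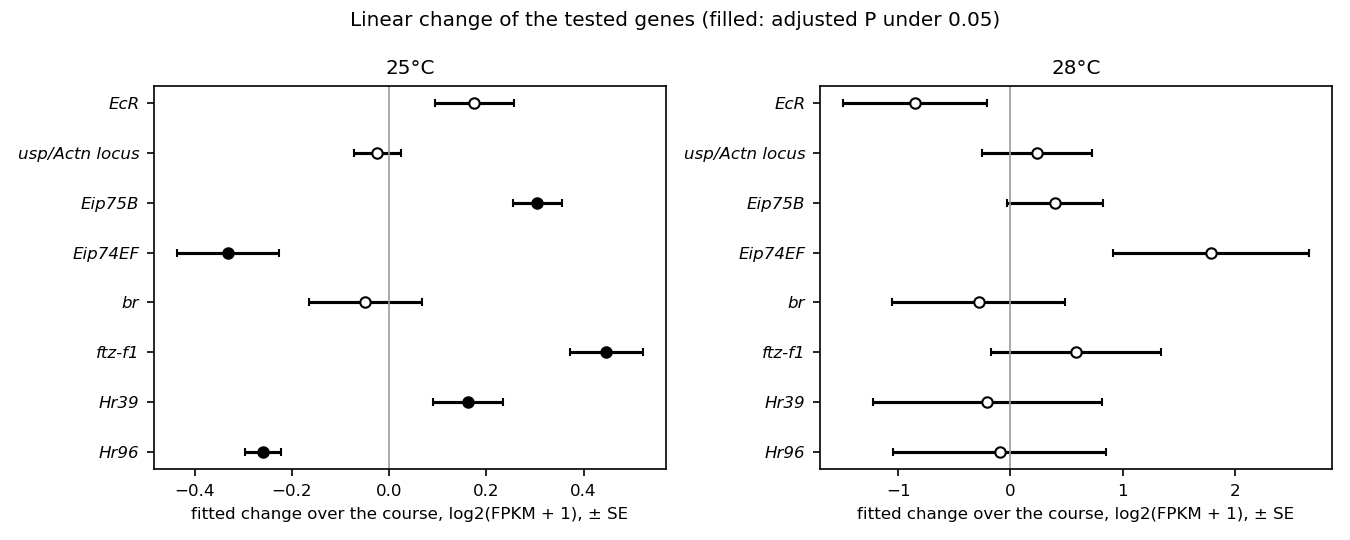
Fitted linear change over the 57 h on the log2(FPKM + 1) scale (horizontal axes) with its SE for the 8 tested genes at 25°C and 28°C; filled points passed an adjusted P-value of 0.05 (limma). At 25°C ftz-f1, Eip75B and Hr39 rose and Eip74EF and Hr96 fell, while at 28°C the SEs ran from 0.43 to 1.02 and no gene passed.

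No 24-h rhythm was called for any of these genes at 25°C. JTK-Cycle ranked each profile, after removal of a straight line, against 24 cosines with periods of 21, 24 or 27 h. All 8 genes had at least 0.9 FPKM in every library, and 0 of 8 were called, with adjusted P-values of 1 throughout, against 4.88% of the 6933 loci tested. Before adjustment for the 24 references, the smallest P-value was 0.055 (Hr96, exact Kendall test), so that 0 of 8 passed 0.05 there as well. A 24-h cosinor regression called 0 of 8, with br lowest at P = 0.22. After Benjamini-Hochberg adjustment over loci, 0 loci were called anywhere in the 25°C time course.

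Apart from their slopes, the libraries at CT45 and CT60 stood out. All 8 genes lay below their own fitted curve in both, while 7 did at CT30 and CT81 and none at CT36. EcR, at 10.9 FPKM at CT45 and 10.4 FPKM at CT60, deviated from its curve by -0.17 and -0.20 on the log2 scale. The deviations were -0.15 and -0.15 for Eip75B, -0.15 and -0.16 for ftz-f1, and -0.16 and -0.13 for br. Those of Hr96 were the smallest, at -0.03 and -0.01. The 2 libraries gave the 2 lowest deviations of EcR, Eip75B, ftz-f1 and Hr39, but not of usp/Actn, Eip74EF, br or Hr96, which had lower ones elsewhere. Of all loci, 50.2% lay below their curves at CT45 and 46.0% at CT60. In these libraries the share also differed with the length of genome that a locus spanned. Of 925 loci spanning over 20 kb, 68.4% lay below their curve at CT45 and 70.5% at CT60, and of 1612 loci spanning at most 2 kb, 24.1% and 15.3% did. Of the 8 genes, 7 spanned over 20 kb, from 22.4 kb for Hr39 to 146 kb for br, and Hr96 spanned 4.12 kb. CT60 had the largest sum of FPKM of the time course, 1162420 against a lowest of 978685. The part of locus length or of the FPKM sum in these deviations was not tested. Without CT45 and CT60, left out after seeing the data, the linear calls above all held and EcR was called too (0.18, limma, adjusted P-value = 0.016). Over the whole time course, 42.8% of the loci over 20 kb rose and 25.6% fell, while 30.1% of those of at most 2 kb rose and 38.0% fell. Whether these shares differ was not tested.

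**Figure D3:**
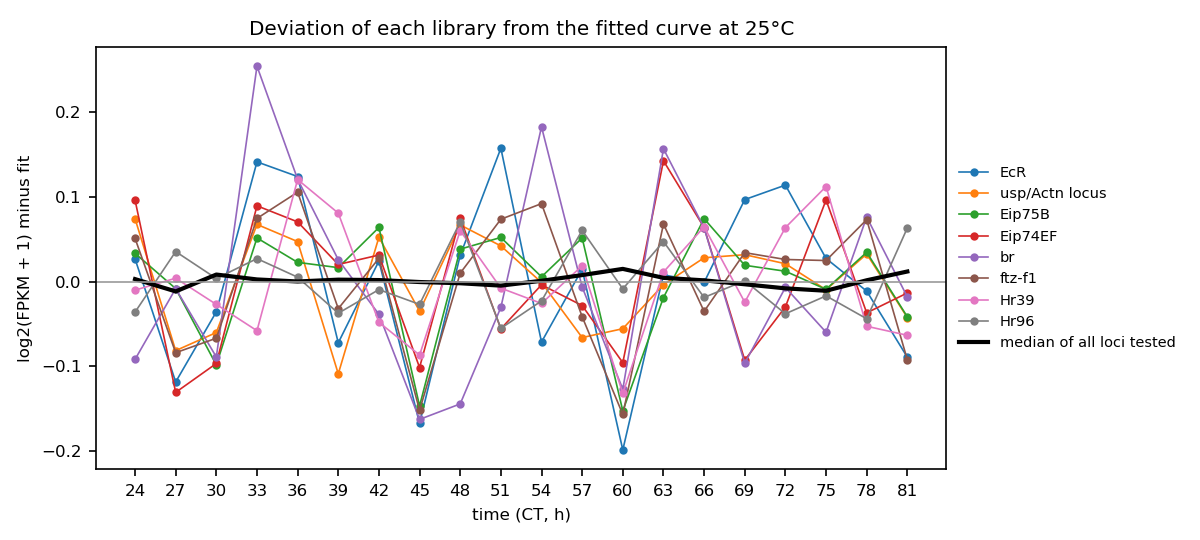
Deviation of each library at 25°C from the fitted curve on the log2(FPKM + 1) scale (vertical axis) against time in CT hours, for the 8 tested genes and for the median of all loci tested (black). At CT45 and CT60 all 8 genes lay below 0, down to -0.20 for EcR, while the median of all loci was -0.00052 and 0.015.

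The profiles most like each changing gene were found by the root mean square difference of standardised log2 profiles over the 20 libraries, among 7531 loci. This is a description without a test, and carries no statement on shared control. Closest to ftz-f1 were Su(Tpl), which encodes the elongation factor ELL, with a difference of 0.32 SD and a rise from a mean of 28.5 FPKM in the 5 first to 58.2 FPKM in the 5 last libraries, and the joint locus CG9837/aqz, at 0.32 SD (158 to 242 FPKM). The median difference of all loci from ftz-f1 was 1.41 SD. Closest to Eip75B were pum, the translational repressor Pumilio, at 0.35 SD (16.8 to 21.1 FPKM), and the phosphodiesterase gene Pde9, at 0.36 SD (6.73 to 8.63 FPKM). Eip75B and ftz-f1 themselves differed by 0.47 SD. Eip74EF was most like CG6511, at 0.48 SD (12.0 to 10.5 FPKM), and Upf1, the helicase of nonsense-mediated decay, at 0.50 SD (24.5 to 20.7 FPKM). Hr96 was most like idc, at 0.33 SD (30.9 to 24.3 FPKM), and the splicing factor gene SF1, at 0.37 SD (60.04 to 45.7 FPKM). Hr39 was most like fru, the transcription factor gene fruitless, at 0.50 SD (30.3 to 32.8 FPKM), and CG2519, at 0.52 SD (16.4 to 19.3 FPKM).

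At 28°C most of the same genes were detected, but their libraries scattered far more. The usp/Actn locus ranged from 6.54 FPKM at CT27 over a median of 28.6 to 59.3 FPKM at CT60, and Eip75B from 11.7 FPKM at CT27 over 28.1 to 51.7 FPKM at CT48. EcR ranged from 1.29 FPKM at CT78 over 10.9 to 23.2 FPKM at CT48. These 3 were the only ones of the 10 with at least 0.9 FPKM in every library. br ranged from 0.241 FPKM at CT63 over 4.64 to 15.8 FPKM at CT45. ftz-f1 was listed at 0 in 1 library, CT27, with a median of 9.20 and a highest value of 17.0 FPKM at CT69. Hr39 was listed at 0 in 3 libraries, with a median of 3.90 FPKM and 33.1 FPKM at CT24, and Hr96 in 4, with a median of 3.96 FPKM and 14.2 FPKM at CT30. At a typical low locus a level of a few FPKM at 28°C corresponds to few reads. Why single libraries were listed at 0 was not tested.

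Eip74EF, the early gene that fell at 25°C, was listed at 0 in 5 libraries at 28°C, at CT24, CT27, CT30, CT36 and CT60. Its median was 1.99 FPKM, with 20.4 FPKM at CT48. Its 5 last libraries (0.666 to 7.86 FPKM) lay above its 5 first (0 to 0.311 FPKM), as for 2.61% of all loci, and its fitted change was 1.79 ± 0.87 (limma, adjusted P-value = 0.39; 95% interval -0.02 to 3.59). This value depended on the scale and the libraries, at 4.30 with a pseudocount of 0.1 and 0.33 over the 16 last time points. CT24 and CT27, among the 5 first, are shallow libraries in which 1 read at a typical low locus was worth 3.15 and 3.30 FPKM. CT30, CT33 and CT36 are not, with relative depths of 1.01, 1.29 and 1.37, the last being the highest of the time course. Without the 4 shallowest libraries the fitted change was 1.68 (limma, adjusted P-value = 0.41). The part of depth in the low first values was not tested. The change at 25°C was of the other sign, but the 28°C value did not pass the test and the difference was not tested. Eip78C was listed at 0 in 17 libraries, with 2.87 FPKM at CT36, 1.03 at CT75 and 0.488 at CT81. Hr38 was listed at 0 in all 20.

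**Figure D4:**
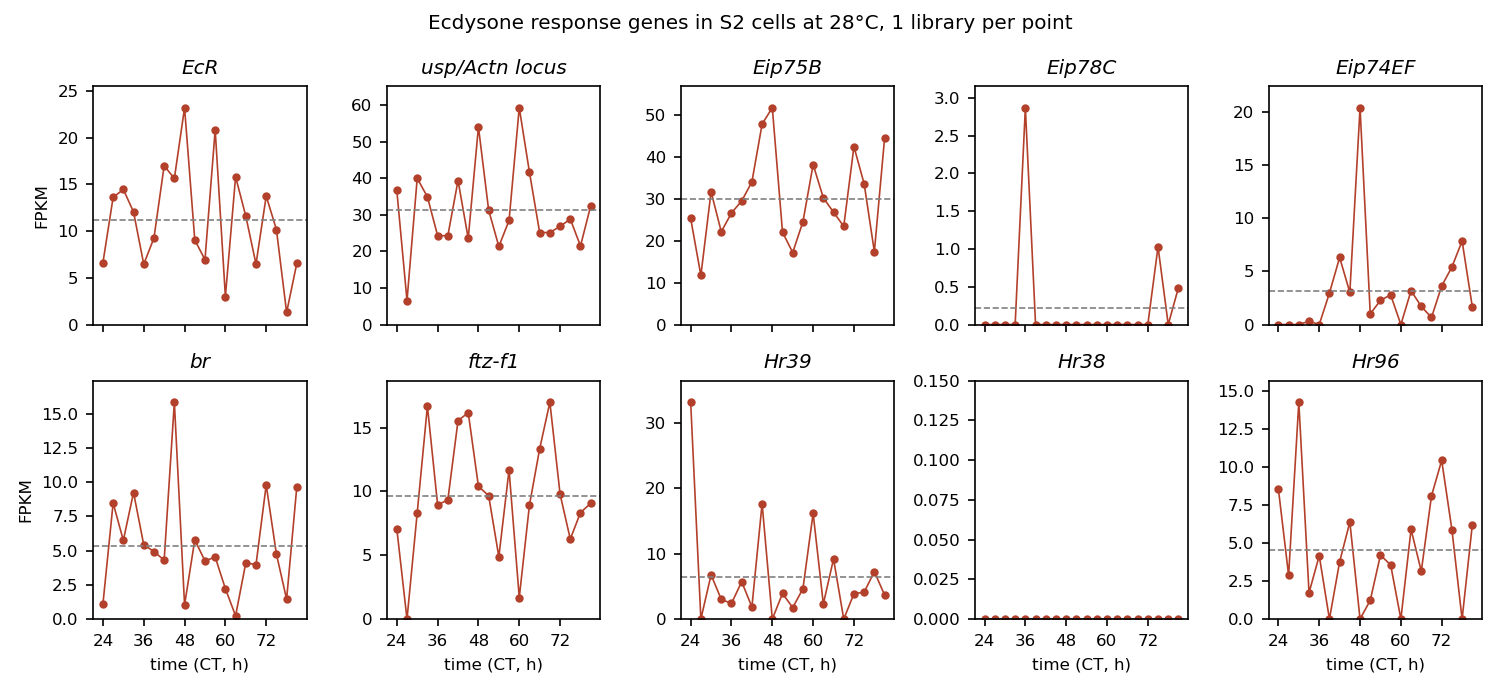
FPKM (vertical axes, from 0) against time in CT hours for the 10 genes at 28°C, with 1 library per point and the mean of the 20 libraries as a dashed line. Single libraries set the highest value of several genes, such as Hr39 at CT24 (33.1 FPKM) and Eip74EF at CT48 (20.4 FPKM), and Hr38 was listed at 0 throughout.

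No gene was called at 28°C. The linear test (limma) called 0 of 8, against 1.15% of 7363 loci rising and 0.122% falling, and 0 of 8 passed an unadjusted P of 0.05 or the adjusted test of Kendall's tau. The spline test called 0 of 8 (1.02% of all loci), with 1 of 8 under an unadjusted P of 0.05. JTK-Cycle called 0 of the 3 genes that could be tested, EcR, usp/Actn and Eip75B, against 3.54% of 2035 loci, and 0 of 3 passed before the adjustment for references or by cosinor. The intervals were wide. For Eip75B the fitted change was 0.39 ± 0.43 (95% interval -0.49 to 1.28), for ftz-f1 0.58 ± 0.76 (-0.98 to 2.15), for EcR -0.85 ± 0.64 (-2.18 to 0.48) and for Hr96 -0.10 ± 0.95 (-2.07 to 1.88). Single libraries moved these values, that of EcR to -0.32 without CT78, and that of Eip75B to 0.10 without CT27, 0.25 without CT81 and 0.64 without CT78. The changes that these genes had at 25°C lay within these intervals. For Eip74EF, the change at 25°C (-0.33) lay below its 28°C interval (-0.02 to 3.59), and the difference was not tested. Depth, RNA fraction, synchronisation and temperature differ together between the time courses, and their parts in the wider scatter at 28°C cannot be told apart. The median change of all loci at 28°C was 0.29, and 0.05 without the 4 shallowest libraries, CT24, CT27, CT48 and CT60.

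Beyond the cascade itself, other parts of the pathway were followed in lists chosen by function. Of 13 other nuclear receptor genes, 3 passed the minimum at 25°C, and 1 rose and 0 fell, against 32.4% and 35.6% of all loci. The riser was Hnf4, a fatty acid-binding receptor known for its role in lipid and glucose metabolism, from a mean of 31.5 FPKM in the 5 first to 41.9 FPKM in the 5 last libraries, with a change of 0.41 ± 0.10 (limma, adjusted P-value = 0.0015). The highest was the locus of Hr78 with Glg1, at 66.9 FPKM, whose genes cannot be told apart. The ecdysone-induced Hr3 and Hr4, which act between the early genes and ftz-f1, were at 0.119 and 0.0890 FPKM; these values were looked up after the lists were counted, and the Hr3 locus also held CG12912. At 28°C 4 of the 13 were tested and 0 were called, and 8 were listed at 0 in all libraries.

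At 25°C most genes that make and inactivate the hormone lay below the minimum of 0.9 FPKM, and the importer did not. Of 9 genes of ecdysteroid synthesis, only sro passed the minimum at 25°C, at 1.11 FPKM, and its change of -0.13 ± 0.12 was not called (limma, adjusted P-value = 0.38); Cyp6t3 followed at 0.893 FPKM. Among 4 genes of uptake, inactivation and membrane signalling, only Oatp74D passed. It encodes the ecdysone importer and rose from a mean of 7.51 FPKM in the 5 first libraries to 12.0 FPKM in the 5 last, a change of 0.93 ± 0.13 (limma, adjusted P-value = 1.4e-06), which was larger in size than that of any of the 8 cascade genes. The second highest of the 4, DopEcR, was at 0.0822 FPKM. At 28°C Oatp74D ranged from 1.31 over a median of 8.72 to 29.6 FPKM, and its change of 1.69 ± 0.60 was not called (limma, adjusted P-value = 0.21). Of the synthesis genes, only spo passed the minimum at 28°C. It was listed at 0 in 17 libraries and reached 24.2 FPKM in its highest, and its change was not called (limma, adjusted P-value = 0.97).

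Of 18 other genes known to be induced by ecdysone, 9 were tested at 25°C, and 4 rose and 2 fell, with a median change of 0.28. This share was near the 68.0% of all loci called in either direction. ImpL2, a secreted insulin-binding protein, had both the highest level and the largest change. It went from 167 FPKM over a median of 952 to 1566 FPKM, with means of 296 FPKM in the 5 first and 1446 FPKM in the 5 last libraries and a fitted change of 2.81 ± 0.21 (limma, adjusted P-value = 3.1e-10). JTK-Cycle called ImpL2 alone of this list at 25°C (adjusted P-value = 0.026), against 4.88% of all loci tested, and no locus passed adjustment over loci. The cell death gene rpr rose by 1.56 ± 0.16, from 3.38 to 10.1 FPKM, and vri, which encodes a bZIP repressor, by 1.18 ± 0.11, from 1.502 to 3.64 FPKM. The joint locus of Eip63F-1 and mge, second in level at 129 FPKM, fell by 0.94 on the log2 scale, from 163 to 92.0 FPKM. ImpL2 was also the one gene of this list called at 28°C, where its 5 first libraries had a mean of 262 FPKM and its 5 last 442 FPKM (1.01 ± 0.21, limma, adjusted P-value = 0.012, 10 genes tested). This call was lost over the 16 first (adjusted P-value = 0.38) or last time points (0.28). It was also lost with a serial correlation of 0.4 removed (0.9998), but the residuals of all loci at 28°C had a median serial correlation of -0.08.

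All 12 coregulators of EcR were tested at 25°C, and 3 rose and 8 fell, with a median change of -0.26 against -0.02 for all loci, of which 68.0% were called in either direction. The list was not tested against other genes. The joint locus of Utx and trk rose by 0.99 ± 0.18 and ash2 by 0.87 ± 0.08; Utx is a histone demethylase and Ash2 a subunit of histone methyltransferase complexes. Hsp83, the chaperone that helps load the hormone receptor, fell by 0.92 on the log2 scale from a mean of 1107 to 655 FPKM, and ptip by 0.39. Hsc70-4 was the highest of the list at 1951 FPKM and is a chaperone of the same machinery. It fell at 25°C (-0.31 ± 0.06, limma, adjusted P-value = 0.00026) and was the 1 gene called at 28°C, where it rose (0.91 ± 0.21, limma, adjusted P-value = 0.021). The call at 28°C was lost over the 16 first (adjusted P-value = 0.38) or last time points (0.43) and without the 4 shallowest libraries (0.075). It was also lost without CT24 (0.060), CT72 (0.055), CT75 (0.065) or CT78 (0.060). With a serial correlation of 0.4 removed it was lost as well (0.98), but the residuals of all loci at 28°C had a median serial correlation of -0.08. The difference between the changes at the 2 temperatures was not tested. JTK-Cycle called ptip alone of this list at 25°C (adjusted P-value = 0.0064), against 4.88% of all loci tested, and no locus passed adjustment over loci.

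Juvenile hormone opposes the metamorphic actions of ecdysone. Of 6 genes of its response, 4 were tested at 25°C, and 2 rose and 2 fell. Of all loci, 68.0% were called in either direction, 32.4% as rising and 35.6% as falling. Both receptor genes rose, gce by 0.55 ± 0.07 and Met by 0.41 ± 0.08. Both epoxide hydrolase genes tested fell, Jheh1 by 1.79 on the log2 scale (71.5 to 25.2 FPKM) and Jheh2, the highest at 142 FPKM, by 0.44. At 28°C 5 were tested and 0 were called.

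**Figure D5:**
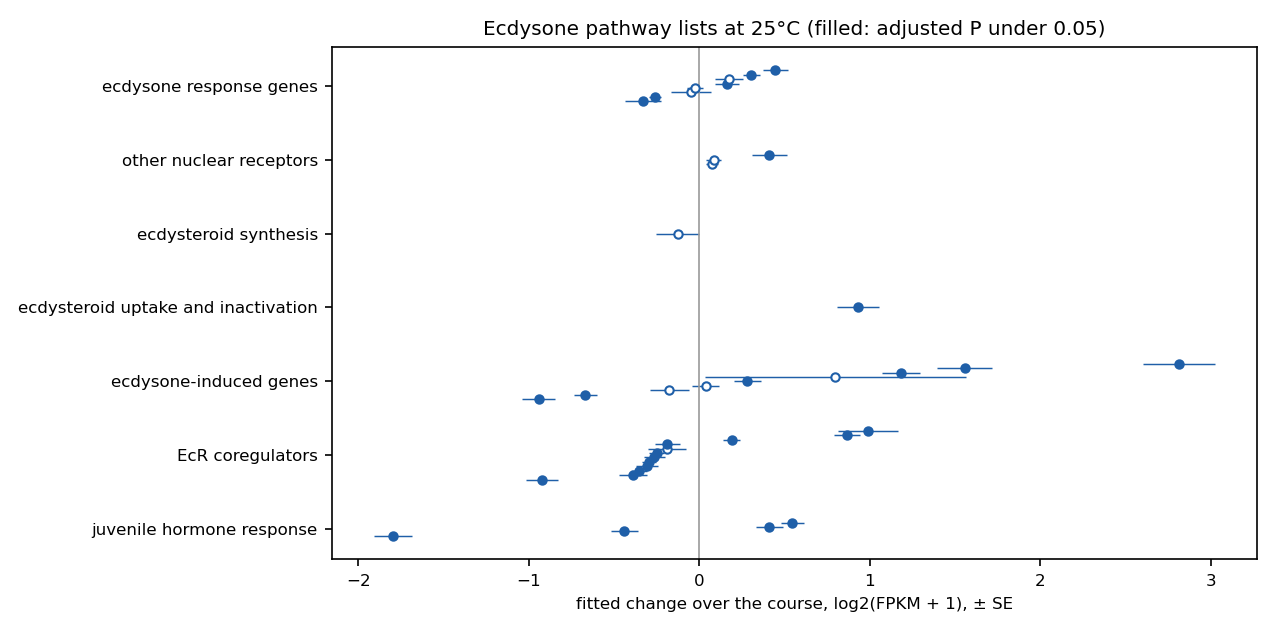
Fitted linear change over the 57 h at 25°C on the log2(FPKM + 1) scale (horizontal axis) with its SE, 1 point per gene that passed the mean minimum of 0.9 FPKM, by list; filled points passed an adjusted P-value of 0.05 (limma). The 8 ecdysone response genes lay between -0.33 and 0.45, and the largest changes in the other lists were those of ImpL2 (2.81) and Jheh1 (-1.79).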

How the data were processed

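The deposited values are FPKM per locus, which the authors obtained from TopHat2 alignments to dm3 with Cufflinks and scaled within each temperature. Alignments of the 28°C libraries had been thinned to a shared ceiling beforehand, and SAMtools is named for these libraries only. Cufflinks can join neighbouring genes into 1 locus. Counts are not kept in these values, so relative depth was read from steps between low values, of which 95.4% at 25°C and 61.3% at 28°C lay within 0.1 of a whole number of reads (20% by chance), and no counting error is given.

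Symbols matched 98.3% of loci through RefSeq accessions. Values were tested as log2(FPKM + 1), with limma 3.58.1 in R 4.3.3, eBayes with a mean trend and Benjamini-Hochberg adjustment over loci with a mean of at least 0.9 FPKM, by a linear term in time or by a natural cubic spline with 3 degrees of freedom; fold changes of low genes are understated on this scale. Changes are slopes times 57 h. JTK-Cycle was rewritten in Python 3.11.15 (two-sided exact Kendall test, Bonferroni over 24 references, loci never below 0.9 FPKM). The linear, spline and JTK-Cycle tests were run on simulated data with independent noise in each library. Such data cannot show how these tests behave under serial correlation. From each list the text names at most 4 called loci with the largest slopes and the 2 highest in mean FPKM, and for each gene called by slope at 25°C the 2 most similar loci; all 10 genes are named. Cell type markers, Hr3 and Hr4 are named outside this rule, chosen after their values were seen. The 10 genes and the lists were chosen with earlier results of these data known. Symbols phm and nos were matched as phtm and nanos. The libraries of a time course may share cultures, which the labels do not state, so the P-values measure scatter between libraries. Levels at the 2 temperatures are in places given side by side but were not tested against each other.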

Additional observations from a re-analysis of the deposited data

How the results depend on the processing

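No paired analysis was possible because the labels give no replicate numbers that the time courses share and no test was run between them. At 25°C Eip75B, ftz-f1 and Hr96 kept their linear direction and call under all alternatives run (pseudocount 0.1, stricter or no minimum, rescaling by median of ratios, 16 first or last time points, Kendall's tau, leaving out each library, serial correlation removed, CT45 and CT60 left out). Alternatives with serial correlation removed, without CT45 and CT60 or without the 4 shallowest libraries were added after seeing the data. The linear call of Hr39 was lost with no minimum (adjusted P-value 0.089), rescaling (0.053), the 16 first time points (0.83), Kendall's tau (0.068) and serial correlation removed (0.25), and Kendall's tau called EcR (0.037). With serial correlation removed, 3 of the 8 genes were called by the linear test and 3 by the spline (Eip74EF, ftz-f1 and Hr96), and over the 16 first time points the spline called 2. Genes called ranged over the left-out libraries from 4 to 6 (linear) and 6 to 7 (spline), and were 0 in every rhythm test and in every test at 28°C.

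The uncalled change of br at 25°C was 0.26 over the 16 last time points and -0.095 to 0.0069 over left-out libraries. Uncalled changes at 28°C also turned sign. Over the 16 last time points they were -0.13 for usp/Actn, -0.11 for Eip75B, -0.39 for ftz-f1, 0.29 for Hr39 and 1.24 for Hr96. Without the 4 shallowest libraries they were -0.26 for usp/Actn, -0.35 for ftz-f1 and 0.24 for Hr96. With a pseudocount of 0.1 Hr39 was at 0.17, and with serial correlation removed br was at 0.18. Kendall's tau was -0.021 for usp/Actn and 0.032 for Hr96. Over left-out libraries the ranges were -0.31 to 0.39 (usp/Actn), -0.26 to 0.82 (ftz-f1), -0.77 to 0.0036 (br), -0.89 to 0.70 (Hr39) and -0.41 to 0.48 (Hr96), and without a change of sign -1.15 to -0.32 (EcR) and 0.10 to 0.64 (Eip75B).

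Over all loci, rhythm calls at 25°C were 118 without detrending, 882 by cosinor and 188 (without CT63) to 509 (without CT33) over left-out libraries, against 338. At 28°C they were 132 with a mean minimum and 216 by cosinor, against 72. Linear calls at 28°C were 173 with 0.9 FPKM required in every library, 24 over the 16 first and 0 over the 16 last time points, and 0 with serial correlation removed, against 94. Spline calls were 117 with a pseudocount of 0.1, 125 with the stricter minimum, 15 and 1 over the 16 first and last time points, 0 with serial correlation removed and 40 (without CT24) to 148 (without CT81) over left-out libraries, against 75. The causes were not tested. At 28°C, where 1 read at a typical low locus was worth at least 1.40 FPKM, low levels of Eip74EF, Eip78C, Hr38, Hr39, Hr96 and br may rest on few reads. The worth of 1 read at these genes is not known. It was lower at br, Eip74EF and Eip78C, whose lowest values above 0 were 0.241, 0.311 and 0.488 FPKM.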
